A study of Mus musculus with 41 samples.

Results

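The Hox cluster genes are the 39 rows of 24371 in each count table whose symbol is Hoxa, Hoxb, Hoxc or Hoxd followed only by a number. They are 11 genes of the HoxA cluster on mouse chromosome 6, 10 of HoxB on chromosome 11, 9 of HoxC on chromosome 15 and 9 of HoxD on chromosome 2. The number in each name is the paralogue position within the cluster. Positions 1 to 3 are called anterior here, 4 to 8 central and 9 to 13 posterior.

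RNA came from lungs of fetal mice at E18.5 (the embryonic day) in 11 bulk libraries and 26 single cells. Pregnant dams were injected at E18.5 with 1 mg/kg dexamethasone, a synthetic glucocorticoid, or with saline, and 2 hours later GFP+ tdTomato- mesenchyme was sorted from fetal lungs carrying Twist2Cre and the Rosa26mT/mG reporter. Lungs were pooled by genotype, giving 4 dexamethasone (dex) and 2 saline pools, all of which carry the same alleles. A CD106+ library from dex at 1 mg/kg, 2 untreated CD106+ libraries and 2 CD106- libraries came from E18.5 lung, CD106 being the surface protein encoded by Vcam1; neither the genotype nor the time after dex is stated for these, and the sorting protocol in the labels names CD106 for other samples only. The cells were captured singly from wild-type C57Bl6/J lungs 24 hours after injection of dams at E17.5, 15 cells after 2 mg/kg dex and 11 after saline, with no animal named. No label ties pools or fractions to different litters. The p-values therefore cover variation among these libraries, some of which can be technical.

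Hox genes encode homeodomain transcription factors that set positional identity along the body axis, and within each cluster the anterior members are generally activated earlier and further towards the head than the posterior ones. The lung forms from the foregut region and its surrounding mesoderm, where anterior and central members are used. In mouse lung, Hoxa5 acts in mesenchyme and is required for normal airway and lung formation, and it overlaps in function with its position 5 paralogues Hoxb5 and Hoxc5. Hox proteins bind DNA together with cofactors of the TALE class (Pbx, Meis and Pknox proteins), and retinoic acid is an upstream regulator of several Hox genes.

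Of the 10 members that rose in the CD106+ fraction, 4 had a promoter sequence in the RefSeq table for GRCm38.p6, the patch release of the mm10 build, and the 3 of these that held a searched motif are shown. They were picked for the match, which is therefore no finding about the 10. Each runs 5′ to 3′ on the gene's strand over 300 bases, 250 before the start and 50 after it. Capitals mark any match to 4 motifs searched for on both strands. These were the retinoid receptor half-site AGGTCA, the composite site of Hox with Pbx proteins TGATNNAT, the glucocorticoid receptor half-site AGAACA and, for the core promoter box, TATAAA. The windows are chr6:52204538-52204837 on the minus strand for Hoxa5, chr6:52164782-52165081 on the minus strand for Hoxa2 and chr11:96318017-96318316 on the plus strand for Hoxb4.
Hoxa5: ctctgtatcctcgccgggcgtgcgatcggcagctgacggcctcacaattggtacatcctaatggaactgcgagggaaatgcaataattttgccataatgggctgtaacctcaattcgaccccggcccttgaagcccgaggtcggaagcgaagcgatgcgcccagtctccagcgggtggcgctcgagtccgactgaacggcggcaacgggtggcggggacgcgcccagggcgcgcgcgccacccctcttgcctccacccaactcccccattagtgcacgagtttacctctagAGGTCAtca
Hoxa2: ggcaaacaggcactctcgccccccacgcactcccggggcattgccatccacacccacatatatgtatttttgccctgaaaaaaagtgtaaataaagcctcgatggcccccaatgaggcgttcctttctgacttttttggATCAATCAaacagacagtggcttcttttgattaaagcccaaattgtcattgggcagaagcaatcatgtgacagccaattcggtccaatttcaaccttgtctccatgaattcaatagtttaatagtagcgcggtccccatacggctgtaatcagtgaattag
Hoxb4: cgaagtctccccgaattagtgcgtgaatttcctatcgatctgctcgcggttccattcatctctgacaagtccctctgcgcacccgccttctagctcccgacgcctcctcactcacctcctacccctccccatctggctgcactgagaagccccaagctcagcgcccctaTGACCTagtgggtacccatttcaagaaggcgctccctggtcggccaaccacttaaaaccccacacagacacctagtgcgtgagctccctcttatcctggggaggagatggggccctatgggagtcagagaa

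The Hoxa5 window held AGGTCA on the plus strand of the window, the Hoxb4 window held it on the opposite strand (printed as TGACCT), and the Hoxa2 window held TGATNNAT on the opposite strand, its first printed base 111 bases before the start (-111). The Hoxa3 window held none of the 4 motifs. AGGTCA was found in 7 of 24 Hox promoters, against 16.3% of all 32851 promoter windows of this length. TGATNNAT was found in 4 of the 24 and in 8.85% of all windows, AGAACA in 2 and 19.0%, and TATAAA in 4 and 13.6%. The Hox windows held a median of 14.5 CpG dinucleotides, against 7 in all windows. These are matches of letters, not measured binding sites.

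Total counts per bulk library were 2220647 to 4224245 in the dex pools, 1670896 and 2431420 in the saline pools, 3790544 in the CD106+ dex library, 4987175 and 7133941 in the CD106+ libraries and 5198705 and 6007400 in the CD106- libraries. Levels are in CPM, the gene's count scaled to a common library total, without correction for gene length, so they are compared between libraries and not between genes. Of 6 mesenchymal markers, Twist2 itself stood at 0 to 0.901 CPM in the sorted pools, while Col1a1 stood at 1765 to 2531 CPM in the dex pools and at 2751 and 3084 CPM in the saline pools. The CD106+ libraries had summed mesenchymal marker levels of 4244 and 6379 CPM and epithelial ones of 1880 and 3565 CPM, against 707 and 1041 CPM and 4502 and 3991 CPM in the CD106- libraries. Vcam1 itself stood at 268 CPM in the CD106+ dex library and at 551 and 687 CPM in the CD106+ libraries, against 1.35 and 3.00 CPM in the CD106- libraries, as their labels say. The CD106+ dex library stood apart from the other CD106+ libraries in its summed endothelial markers, at 2234 CPM against 112 and 87.2 CPM. Counts overlap between some members. The Hoxa3 gene spans Hoxa4, Hoxa5 and Hoxa6, Hoxb3 spans Hoxb4, and Hoxa3 had fractional counts in 7 of 11 libraries. Reads of these overlapping genes, and of antisense transcripts such as those beside Hoxa11, cannot be told apart because the use of strand is not stated.

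Hox counts in these libraries fell mostly on HoxA and HoxB members of positions 2 to 5. HoxA and HoxB members held 96.9 to 100% of Hox counts in the dex pools, 98.7% in both saline pools, 99.4% in the CD106+ dex library, 99.6% in both CD106+ libraries, and 89.7 and 99.1% in the CD106- libraries. Positions 2 to 5 held 79.4 to 96.3% over the 11 libraries. All Hox genes summed to 198 to 260 CPM in the dex pools against 284 and 342 CPM in the saline pools, to 232 CPM in the CD106+ dex library against 244 and 295 CPM in the CD106+ libraries, and in CD106- cells to 26.2 and 38.3 CPM. The CD106- libraries had the lowest sum, below every other library.

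The number of members present differed between the CD106+ and CD106- libraries. Members at 1 CPM or more in every library of a group numbered 10 in dex pools and 11 in saline pools, 14 in the CD106+ dex library, 13 in the CD106+ libraries and 6 in the CD106- libraries. This rule is stricter for a group of more libraries, so groups of unlike size are not compared by it. Over all 11 libraries, 5 members were at 1 CPM or more in every one, namely Hoxa3, Hoxa5, Hoxb3, Hoxb4 and Hoxb5. At 5 CPM or more in any library there were 13 members, 6 of HoxA (Hoxa2, Hoxa3, Hoxa4, Hoxa5, Hoxa7, Hoxa11) and 7 of HoxB (Hoxb2, Hoxb3, Hoxb4, Hoxb5, Hoxb6, Hoxb7, Hoxb9). The other 26 members stayed below 5 CPM in every library. Hoxc5, the HoxC paralogue of Hoxa5 and Hoxb5, reached 4.08 CPM in dex pool 2 and was at 0 in the other dex pools, at 0.598 and 0.411 CPM in the saline pools, and at 0.769 and 0 CPM in the CD106- libraries, with no count in any CD106+ library. The highest HoxD value was Hoxd11 at 2.26 CPM in dex pool 4. Hoxa10, Hoxc11 and Hoxc12 had no count in any bulk library, where 3 counts correspond to 0.421 to 1.80 CPM.

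**Figure D1:**
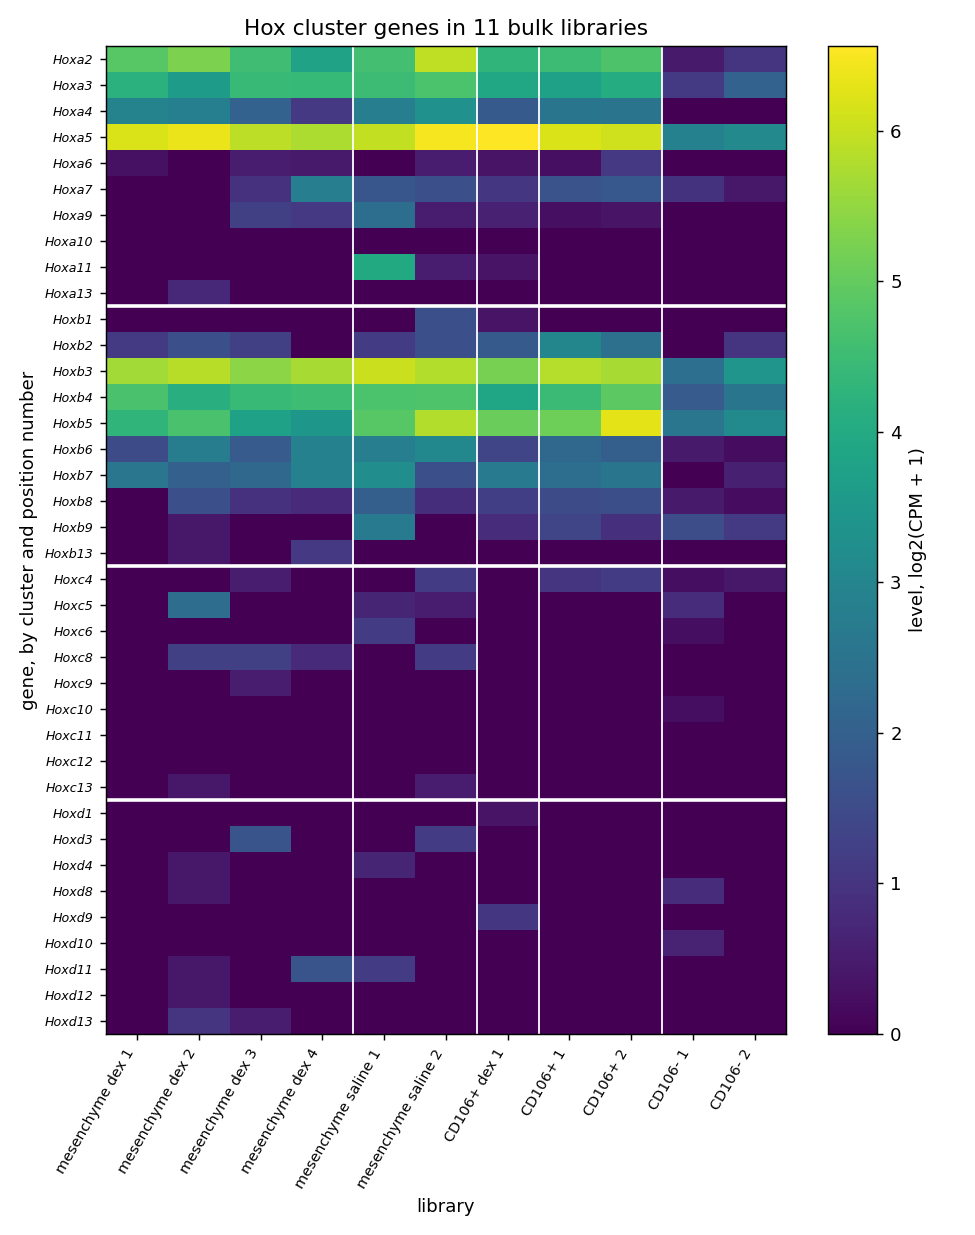
Level of each of 38 Hox genes (rows, by cluster and position number) in each of 11 bulk libraries (columns), as log2(CPM + 1) by colour; white lines separate clusters and groups. The brightest rows are Hoxa2, Hoxa3, Hoxa5, Hoxb3, Hoxb4 and Hoxb5, in which the CD106- columns are darker than all others, and the HoxC and HoxD blocks stay at or below 4.08 CPM.

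Within the posterior group, saline pool 1 had the highest summed level, at 25.7 CPM beside 0 to 4.53 CPM in the other 10 libraries. Hoxa11, best known for limb and reproductive tract development, had 0 counts in each of the 4 dex pools, against 15.0 CPM in saline pool 1 and 0.411 CPM in saline pool 2, with 0.264 CPM in the CD106+ dex library and none in the other libraries. Hoxb9, also a posterior gene, stood at 0 to 0.340 CPM in the dex pools, against 5.39 CPM in saline pool 1 and 0 in saline pool 2. Hoxb9 had 0.791 CPM in the CD106+ dex library against 1.60 and 0.841 CPM in the CD106+ libraries, and 1.92 and 1.17 CPM in the CD106- libraries. The 16 posterior members together held 0 to 2.29% of Hox counts in the dex pools, against 9.05% in saline pool 1 and 0.361% in saline pool 2. CD106- library 1 had a share of 10.3%, but of a Hox sum of only 26.2 CPM. Saline pool 1 also had the highest sum of chondrocyte markers, at 1244 CPM beside 474 CPM in saline pool 2 and 7.58 to 304 CPM in the dex pools; its part in these values was not tested.

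CD106+ cells carried far more Hox RNA than CD106- cells, over anterior and central members alike. Of the 39 members, 12 passed the filter on low counts and were tested, and 27 did not. Of these 12, 10 rose in CD106+ cells and none fell at an adjusted p under 0.05 (edgeR), and all 12 had CD106+ libraries above both CD106- libraries. Hoxa5, Hoxb3, Hoxb4 and Hoxb5 were high enough in either fraction to pass the filter. The others passed through their CD106+ libraries, which in part fixed their direction and separation in advance. The counts of members and their median below share this limit. Among the 12364 genes tested, 6.67% rose, 3.35% fell and 25.7% had CD106+ libraries above both CD106- libraries. The median log2 fold change was 3.16 over the 12 members (3.16 also with Hoxa4 at its bound, below) and 0.05 over all genes tested. The rise went with the mesenchymal markers, and in such sorted fractions fewer mesenchymal cells and less RNA per cell cannot be told apart.

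Hoxa5, the mesenchymal lung patterning gene, stood at 71.8 and 66.9 CPM in CD106+ cells, against 6.35 and 7.49 CPM in CD106- cells. Its log2 fold change was 3.28 (SE 0.37, edgeR adjusted p = 5.4e-07). Hoxb5, its HoxB paralogue, which has a role in airway branching in mouse, stood at 33.7 and 77.5 CPM in CD106+ cells, against 5.00 and 7.66 CPM in CD106- cells (log2 fold change 3.05, SE 0.43, edgeR adjusted p = 1.9e-05). Both groups were separate for each gene, but the CD106+ libraries differed from each other by more for Hoxb5 than for Hoxa5. The Hoxb5 to Hoxa5 count ratio was accordingly 0.469 and 1.16 in CD106+ cells, against 0.788 and 1.02 in CD106- cells, with no separation of the groups.

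Among the anterior genes, Hoxa2, known for patterning the hindbrain and the pharyngeal arch, had the largest fitted log2 fold change after Hoxa4. Hoxa2 stood at 21.5 and 25.8 CPM in CD106+ cells, against 0.385 and 0.999 CPM in CD106- cells (log2 fold change 4.97, SE 0.64, edgeR adjusted p = 4.4e-06). Hoxa3, needed for thymus and parathyroid formation, stood at 12.6 and 15.7 CPM in CD106+ cells, against 1.15 and 3.16 CPM in CD106- cells (log2 fold change 2.63, SE 0.63, edgeR adjusted p = 0.0062). Hoxb3 stood at 56.3 and 50.9 CPM in CD106+ cells, against 4.23 and 9.82 CPM in CD106- cells (log2 fold change 2.87, SE 0.42, edgeR adjusted p = 3.3e-05). Hoxb2, which acts in the hindbrain, stood at 7.02 and 4.35 CPM in CD106+ cells, against 0 and 0.999 CPM in CD106- cells (log2 fold change 3.34, edgeR adjusted p = 0.030). The Hoxa3 call was lost without CD106- library 1 (adjusted p = 0.18, edgeR), and the Hoxb2 call without CD106+ library 1 or CD106- library 1 (adjusted p up to 0.38, edgeR).

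The other central genes that passed moved the same way. Hoxb4, known for its effect on blood stem cells, stood at 21.3 and 29.3 CPM in CD106+ cells, against 2.69 and 4.83 CPM in CD106- cells (log2 fold change 2.67, SE 0.50, edgeR adjusted p = 5.9e-04). Hoxa4 stood at 4.81 and 4.77 CPM in CD106+ cells and at 0 in both CD106- libraries, at least 17.9-fold higher when 3 counts are allowed over the CD106- libraries together (edgeR adjusted p = 0.0012). Hoxb7 stood at 4.21 and 4.91 CPM in CD106+ cells, against 0 and 0.499 CPM in CD106- cells (edgeR adjusted p = 0.016). Hoxb6 stood at 3.61 and 2.94 CPM in CD106+ cells, against 0.385 and 0.166 CPM in CD106- cells (edgeR adjusted p = 0.037). CD106- cells held 3 counts of each of these, which gives ratios of 17.3 for Hoxb7 (95% exact counting interval 5.61 to 86.2) and 12.0 for Hoxb6 (3.82 to 60.8). The Hoxb7 call was lost without CD106+ library 2 or CD106- library 1 (adjusted p up to 0.31, edgeR), and the Hoxb6 call under 8 of 15 alternatives (adjusted p up to 0.48).

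Hoxa7 and Hoxb8 did not pass. Hoxa7 stood at 2.21 and 2.52 CPM in CD106+ cells, against 0.962 and 0.333 CPM in CD106- cells (log2 fold change 1.83, edgeR adjusted p = 0.33). Hoxb8 stood at 1.80 and 1.96 CPM in CD106+ cells, against 0.385 and 0.166 CPM in CD106- cells (log2 fold change 2.67, edgeR adjusted p = 0.17). The calls of Hoxa2, Hoxa4, Hoxa5, Hoxb3, Hoxb4 and Hoxb5 held in all 15 alternatives run. In 4 of these a library was left out, so that 1 group had a single library, assumed to vary like the other group.

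**Figure D2:**
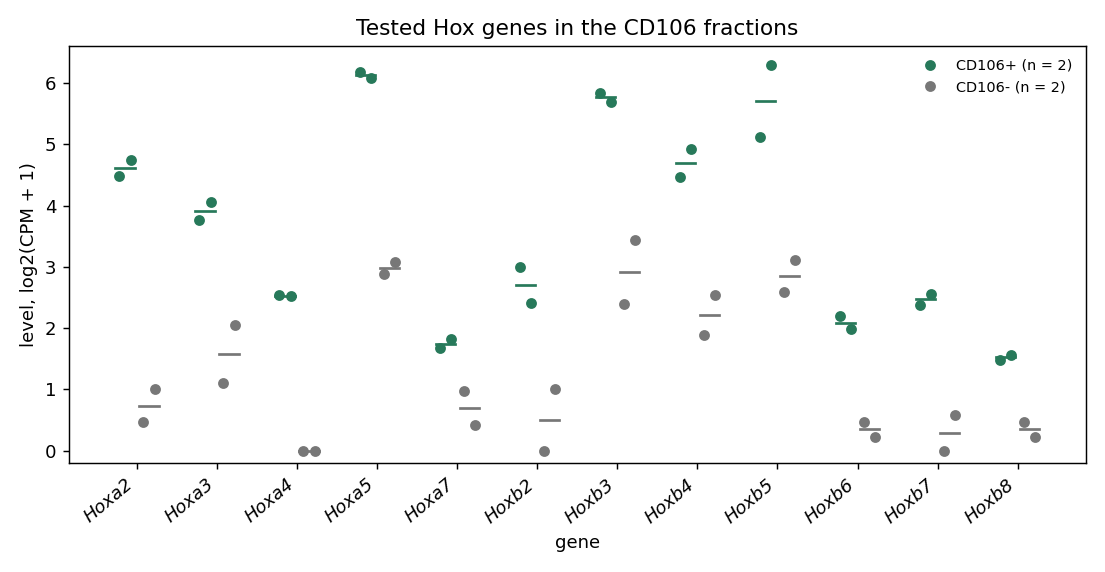
Level, as log2(CPM + 1), of the 12 tested Hox genes in 2 CD106+ libraries (green, left of each pair) and 2 CD106- libraries (grey); each point is a library and each bar the mean of the points. Every green point lies above both grey points of its gene, and both grey Hoxa4 points are at 0.

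Genes that work with or around Hox proteins were read from lists chosen with earlier results of these data known. Of 7 tested TALE cofactor genes, 3 rose and none fell in CD106+ cells, where 6.67% of all genes rose and 3.35% fell. Pknox2 averaged 41.7 ± 2.03 CPM in CD106+ cells and 1.88 ± 1.57 CPM in CD106- cells (SD, n = 2 each; log2 fold change 4.37, edgeR adjusted p = 2.4e-06). Pknox2 passed the filter through its CD106+ libraries, which in part fixed its direction in advance. The counts and median of the TALE genes share this limit. Meis2 and Meis1 had log2 fold changes of 2.93 and 2.45 (edgeR adjusted p = 3.0e-06 and 4.7e-06). Of 22 tested Polycomb and Trithorax genes, which keep Hox genes silent or active, none passed, and 1 had an unadjusted p under 0.05 by edgeR, where 19.8% of all genes did. The median log2 fold change was 1.00 for the TALE genes and -0.09 for the Polycomb and Trithorax genes, beside 0.05 for all genes. None of 19 other transcripts of the Hox clusters passed the filter in either comparison.

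Of 13 tested genes linked to position 5 Hox function in lung or acting upstream of Hox genes, 7 rose and 1 fell in CD106+ cells, where 6.67% of all genes rose and 3.35% fell. Their median log2 fold change was 1.03, beside 0.05 for all genes. Of these, Fgf10 and Wnt2 passed the filter through their CD106+ libraries, which in part fixed their direction in advance. The counts and median of the 13 genes share this limit. Fgf10, the mesenchymal growth factor that drives bud outgrowth, averaged 98.2 ± 24.3 CPM in CD106+ cells and 1.41 ± 0.361 CPM in CD106- cells (log2 fold change 6.03, edgeR adjusted p = 2.0e-10). Wnt2, a mesenchymal signal needed for lung specification, averaged 31.4 ± 23.6 CPM in CD106+ cells and 0.0962 ± 0.136 CPM in CD106- cells (edgeR adjusted p = 1.2e-06). Tbx5 rose by 2.26 on the log2 scale (edgeR adjusted p = 7.0e-05), and the retinoic acid synthase gene Aldh1a2 fell, averaging 6.23 ± 0.306 CPM in CD106+ cells and 46.8 ± 1.25 CPM in CD106- cells (log2 fold change -2.95, edgeR adjusted p = 7.2e-06). Aldh1a2 is also a mesothelial marker. The 4 mesothelial markers, Aldh1a2 included, summed to 10.2 and 15.7 CPM in CD106+ cells, against 77.3 and 68.4 CPM in CD106- cells. Aldh1a2 alone made up 47.7 and 45.9 CPM of the CD106- sums, so they are not separate from its own level. The part of that cell type was not tested.

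In sorted mesenchyme 2 hours after injection, no Hox gene passed the test between dex and saline. Of the 39 members, 9 passed the filter on low counts and 30 did not, and 0 of the 9 were called by edgeR, DESeq2 or limma-voom, where edgeR called 2.69% of the 11356 genes tested. At an unadjusted p under 0.05, edgeR gave 1 of the 9, in the lower direction, where 6.09% of all genes lay. All 9 log2 fold changes were below 0, against 50.9% of all genes, and their median was -0.37 against -0.01. The dex pools lay wholly below both saline pools for 3 of the 9, Hoxa3, Hoxb4 and Hoxb5, against 13.0% of all genes. The dex and saline pools also differed in sex make-up, as given below.

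Hoxb5 had the lowest fold change of the 9. It stood at 18.46, 24.5, 12.6 and 10.2 CPM in the dex pools, against 28.1 and 55.5 CPM in the saline pools. The highest dex pool was close to the lower saline pool, and the saline pools differed from each other about as much as the groups did. Its log2 fold change was -1.27 (SE 0.42, unadjusted p = 0.00756, adjusted p = 0.14 by edgeR), and it was negative in all 19 alternatives, at -2.12 to -0.56 with adjusted p from 0.082 to 0.77. The Hoxb5 to Hoxa5 count ratio, chosen after the values were seen and not tested, was 0.255, 0.298, 0.212 and 0.190 in the dex pools, against 0.461 and 0.631 in the saline pools. The saline pools had Xist, the RNA of the inactive X chromosome in females, at 33133 and 20880 CPM, against 6.59 to 11111 CPM in the dex pools. Ddx3y, a Y chromosome gene, stood at 1.20 and 0 CPM in the saline pools, against 74.4 to 174 CPM in the dex pools. Sex make-up thus differed along with treatment between these groups, for all 9 tested genes. With Xist as a covariate the Hoxb5 value was -0.56 (edgeR adjusted p = 0.77).

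Hoxa5 itself was close between the groups. It stood at 72.4, 82.3, 59.4 and 53.6 CPM in the dex pools, against 61.0 and 88.0 CPM in the saline pools (log2 fold change -0.09, SE 0.28, edgeR adjusted p = 0.95). The dex pools overlapped the saline range for Hoxa5, and with the replicate number as a block or Xist as a covariate its value was 0.13 or 0.28. Hoxb4 stood at 24.6, 16.7, 20.7 and 21.9 CPM in the dex pools, against 25.1 and 25.9 CPM in the saline pools (log2 fold change -0.22, SE 0.39, edgeR adjusted p = 0.88). Hoxa4 stood at 6.63, 6.12, 3.15 and 1.13 CPM in the dex pools, against 5.98 and 9.05 CPM in the saline pools (log2 fold change -0.73, SE 0.80, edgeR adjusted p = 0.78). Of these central genes, Hoxb4 was narrowly separate between the groups and Hoxa4 overlapped.

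None of the anterior genes passed. Hoxa2 stood at 28.2, 37.7, 22.5 and 12.8 CPM in the dex pools, against 23.3 and 60.05 CPM in the saline pools (log2 fold change -0.65, SE 0.44, edgeR adjusted p = 0.58). Hoxa3 stood at 17.4, 11.1, 20.7 and 20.0 CPM in the dex pools, against 21.5 and 25.1 CPM in the saline pools (log2 fold change -0.37, SE 0.43, edgeR adjusted p = 0.79). Hoxb3 stood at 49.5, 56.8, 41.9 and 51.3 CPM in the dex pools, against 65.2 and 55.5 CPM in the saline pools (log2 fold change -0.21, SE 0.30, edgeR adjusted p = 0.83). Dex pool 2 lay between the saline pools for Hoxb3, and the Hoxa2 values turned on saline pool 2, without which the log2 fold change was 0.14.

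Hoxb6 and Hoxb7 had the widest standard errors with Hoxa4, at 0.81 and 0.87. Hoxb6 stood at 1.89, 5.78, 2.70 and 6.41 CPM in the dex pools, against 5.98 and 7.40 CPM in the saline pools (log2 fold change -0.61, edgeR adjusted p = 0.82). Hoxb7 stood at 4.97, 3.06, 3.60 and 6.41 CPM in the dex pools, against 8.38 and 2.06 CPM in the saline pools (log2 fold change -0.14, edgeR adjusted p = 0.98). The saline pools bracketed all dex pools for Hoxb7, so 1 saline pool decides its direction. Hoxb2 and Hoxa7 were too low to test. Hoxb2 stood at 1.18, 2.04, 1.35 and 0 CPM in the dex pools, against 1.20 and 2.06 CPM in the saline pools. Hoxa7 stood at 0, 0, 0.901 and 6.03 CPM in the dex pools, against 2.39 and 2.06 CPM in the saline pools.

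**Figure D3:**
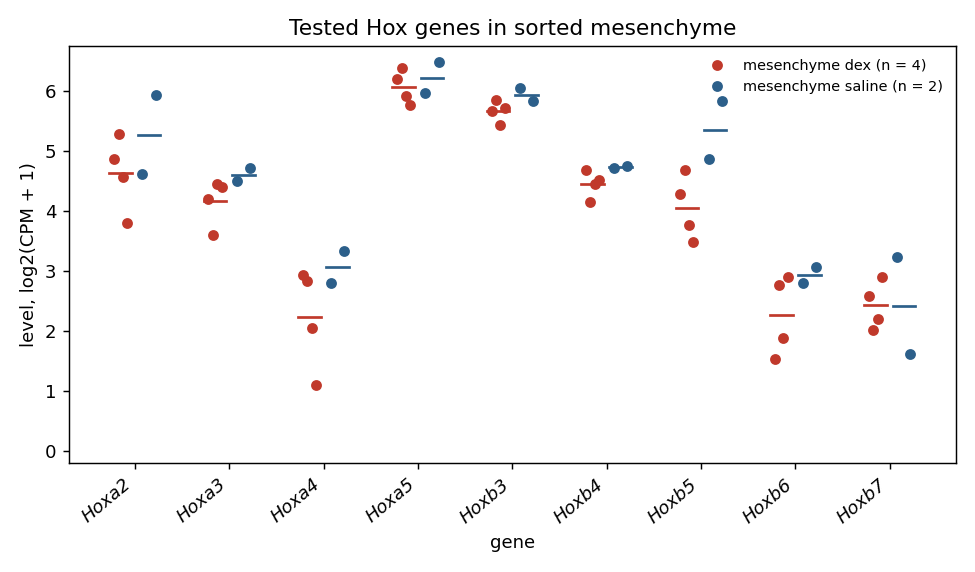
Level, as log2(CPM + 1), of the 9 tested Hox genes in 4 dex (red, left of each pair) and 2 saline (blue) mesenchyme pools; each point is a pool and each bar the mean of the points. Hoxb5 has the widest gap between bars, with red points from 10.2 to 24.5 CPM and blue points at 28.1 and 55.5 CPM, while for Hoxa5 the red and blue points overlap.

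Around the Hox genes, 0 of 8 tested TALE genes and 0 of 21 Polycomb and Trithorax genes passed in mesenchyme, where 2.69% of all genes did. At an unadjusted p under 0.05, edgeR gave 2 of the 8 and 1 of the 21, where 13.8% of all genes lay. Of 14 tested genes linked to position 5 Hox function or acting upstream, 1 rose, where 1.95% of all genes rose, and none fell. That gene was Cyp26b1, which encodes an enzyme that degrades retinoic acid. It averaged 23.2 ± 5.05 CPM in dex pools and 3.63 ± 1.64 CPM in saline pools (SD, n = 4 and 2; log2 fold change 2.76, SE 0.57, edgeR adjusted p = 0.011). Cyp26b1 passed the filter through its dex pools, which in part fixed its direction in advance. The Cyp26b1 call was lost without saline pool 2 (adjusted p = 0.11, edgeR), with limma-voom (0.092), with the replicate number as a block (0.068) and with chondrocyte markers as a covariate (0.61).

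The CD106+ dex library was set beside the 2 untreated CD106+ libraries without a test, since it is 1 library from a separate table. Of the 8 members at 5 CPM or more in any of the 3 libraries, 2 lay above both untreated libraries, 5 below both and 1 between. Hoxb7 reached 5 CPM only in the dex library, and Hoxb2 only in untreated library 1. The level rule thus in part fixed Hoxb7 as above and Hoxb2 as below in advance. Over all 11828 genes at that level, 31.2% lay above both and 46.5% below both. No member had a log2 ratio of 1 or more or of -1 or less, where 12.6% and 18.8% of all genes did, and the median was -0.45 over the 8 members and -0.23 over all genes.

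Hoxa5 stood at 93.7 CPM in the CD106+ dex library (95% exact Poisson interval 84.2 to 104), against 71.8 and 66.9 CPM in untreated CD106+ cells (log2 ratio of CPM plus 1, 0.43). Hoxb7 was the other member above both, at 5.54 CPM in the CD106+ dex library against 4.21 and 4.91 CPM in untreated CD106+ cells. The intervals cover counting error only, and reads carry no molecular identifiers. Below both stood Hoxb3, at 36.1 CPM in the CD106+ dex library against 56.3 and 50.9 CPM in untreated CD106+ cells (log2 ratio -0.56). Hoxb4 stood at 13.7 CPM in the CD106+ dex library against 21.3 and 29.3 CPM in untreated CD106+ cells (log2 ratio -0.84). Hoxb2 stood at 2.64 CPM in the CD106+ dex library against 7.02 and 4.35 CPM in untreated CD106+ cells (log2 ratio -0.88). Of the HoxB members, Hoxb7 lay above both and Hoxb2, Hoxb3, Hoxb4 and Hoxb5 below both. Of the HoxA members, Hoxa5 lay above both, Hoxa2 below both and Hoxa3 between. The Poisson interval of Hoxb2 in the CD106+ dex library, 1.27 to 4.85 CPM, overlapped that of untreated library 2 (2.95 to 6.17 CPM). Those of Hoxb7, 3.43 to 8.47 CPM, and of Hoxa2, 14.4 to 23.3 CPM, overlapped those of both untreated libraries.

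Hoxb5 stood at 32.7 CPM in the CD106+ dex library, against 33.7 and 77.5 CPM in untreated CD106+ cells, so that its log2 ratio of -0.75 came from 1 of the untreated libraries. Hoxa2 stood at 18.47 CPM in the CD106+ dex library, against 21.5 and 25.8 CPM in untreated CD106+ cells. Hoxa3 stood at 14.4 CPM in the CD106+ dex library, between 12.6 and 15.7 CPM in untreated CD106+ cells. Beside the endothelial sum given above, the mesenchymal marker sum was 3363 CPM in the CD106+ dex library against 4244 and 6379 CPM in untreated CD106+ cells, and that of 3 hepatic markers was 5.80 CPM against 389 and 890 CPM; their part in the Hox values was not tested.

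**Figure D4:**
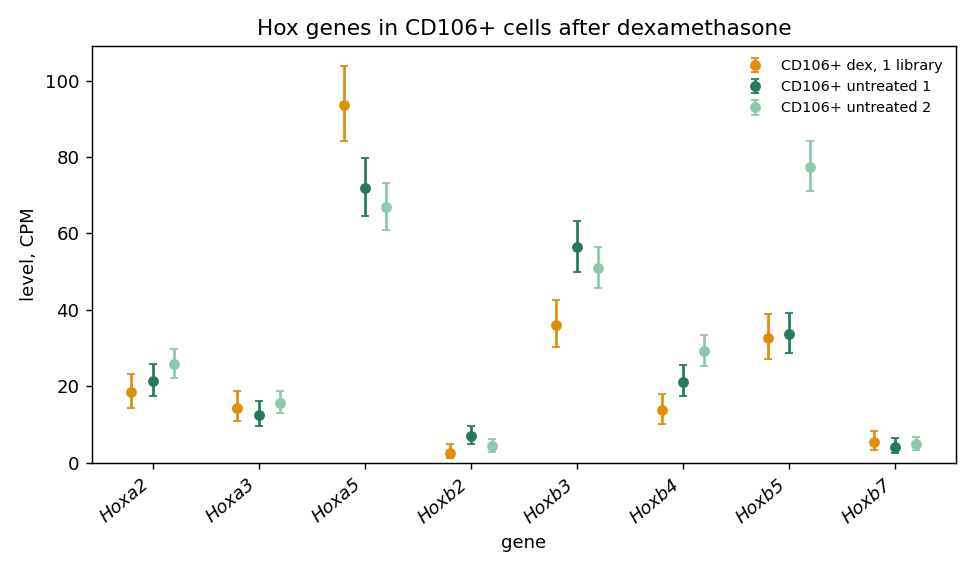
Level in CPM of the 8 Hox genes at 5 CPM or more in the CD106+ dex library (orange) and in untreated CD106+ libraries 1 and 2 (dark and light green); bars are 95% exact Poisson intervals of the counts. The orange Hoxa5 point at 93.7 CPM lies above both green points, the orange Hoxb3 and Hoxb4 points lie below both, and the green Hoxb5 points at 33.7 and 77.5 CPM are far apart.

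Single cells carried 0 to 6 Hox genes each. Across 26 cells of 215623 to 1787997 counts, 12 of the 39 members had a count in any cell and 27 had none. At least 1 member was present in 12 of 15 dex cells (80.0%, exact binomial interval 51.9 to 95.7%) and in 11 of 11 saline cells (100%, 71.5 to 100%). The median number of members was 2 in dex cells and 4 in saline cells, at median depths of 852850 and 1349765 counts. After thinning every cell to 200000 counts the shares were 73.3% of dex cells and 81.8% of saline cells, and the medians 2 and 3. Cells of a group share no named animal, so each group is 1 sample and no test was made. Summed mesenchymal markers were 3873 to 11153 CPM in dex cells and 660 to 9159 CPM in saline cells. Epcam was at 0 in every cell, but other epithelial markers were not. Summed epithelial markers were 0.974 to 7638 CPM in dex cells and 10.4 to 692 CPM in saline cells. The highest of these sums were 7638 CPM in dex cell 11 and 3721 CPM in dex cell 15. Their part in the Hox values was not tested.

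Hoxa5 was the member found in most cells. It had counts in 9 of 15 dex cells and 6 of 11 saline cells, at a pooled level of 31.1 CPM in dex cells and 22.4 CPM in saline cells, with the top cell holding 43.9% of its counts in dex cells and 51.1% in saline cells. Hoxb3 had counts in 7 dex and 6 saline cells, at a pooled level of 14.1 CPM in dex cells and 7.81 CPM in saline cells. Hoxb4 had counts in 5 dex and 6 saline cells, at a pooled level of 7.01 CPM in dex cells and 7.68 CPM in saline cells. These 3 genes were present in both groups, and their highest values lay in single cells (233 CPM of Hoxb3 in dex cell 15, for example).

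Hoxb5 differed more between the groups of cells. It had counts in 3 of 15 dex cells, at 7.30, 14.2 and 15.2 CPM, against 7 of 11 saline cells at 2.24 to 182 CPM with a median of 15.5 CPM. Its pooled level was 2.97 CPM in dex cells (Poisson interval 2.11 to 4.06) and 35.2 CPM in saline cells (32.2 to 38.3). These intervals cover counting error only and leave out the spread between cells. Saline cells 1 and 10, at 182 and 139 CPM, had the highest levels and held 211 and 235 of the 522 saline counts. The log2 ratio was -3.19, and -1.13 without the 6 cells of high Pecam1 described next. Hoxa2 had counts in 1 dex cell, at 3.93 CPM, against 3 saline cells at 36.4 to 58.7 CPM. Hoxd13, a posterior gene at most 1.02 CPM in bulk libraries, was seen in saline cell 11 alone, at 96.3 CPM. Of the 10 members at 5 CPM or more pooled in either group, 0 had a log2 ratio of dex over saline of 1 or more and 6 had one of -1 or less, where 29.4% and 37.7% of all 9694 genes at that level did.

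Some Hox genes in cells went with an endothelial marker and with depth. Pecam1, an endothelial surface protein gene, was above 100 CPM in 6 cells, 1 dex and 5 saline, which also had mesenchymal sums of 3935 to 8841 CPM. All 4 cells with Hoxa2 were among these 6, and Hoxb5 had counts in 6 of the 6 and in 4 of the 20 other cells. Hoxa5 had counts in 5 of the 6 and in 10 of the 20 other cells, and Hoxb3 and Hoxb4 in 4 of the 6 each and in 9 and 7 of the others. Hoxa3 had counts in 2 of the 6 and 7 of the 20, Hoxb2 in 1 and 3, Hoxa7 in 1 and 1, and Hoxa4, Hoxb6 and Hoxd13 in none of the 6 and in 3, 2 and 1 of the 20. Total counts were 1156871 to 1787997 in the 6 cells, against 215623 to 1528391 in the other cells, and 3 of the 4 cells with Hoxa2 were the 3 deepest of all 26. The 6 cells held 4 to 6 members each, against 0 to 6 in the other cells. The 6 cells also differ from the others in their shares of the 2 treatments. The part of depth, of Pecam1 and of treatment in the Hoxa2 and Hoxb5 values was not tested.

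**Figure D5:**
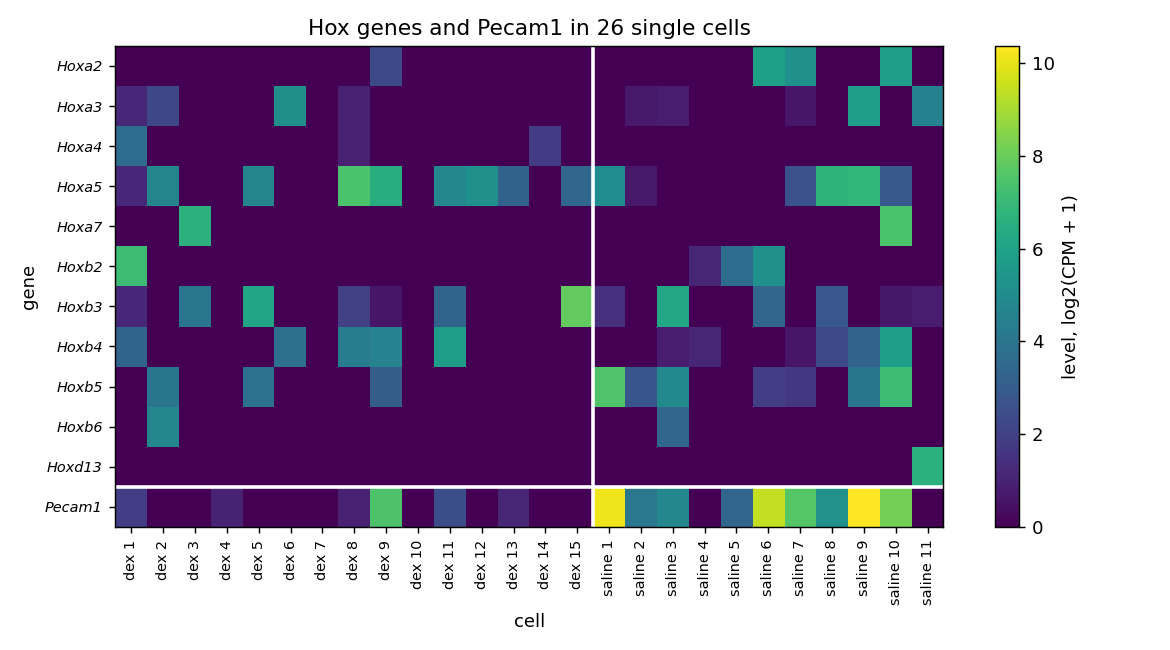
Level, as log2(CPM + 1) by colour, of 11 Hox genes with a count, and of Pecam1 (bottom row), in 15 dex cells (left) and 11 saline cells (right). Hoxa5, Hoxb3 and Hoxb4 are scattered over both groups, while Hoxa2 and the highest Hoxb5 values fall in columns where Pecam1 is above 100 CPM.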

How the data were processed

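RNA was read from 4 tables deposited by the authors, which hold expected counts per gene symbol, since some values are not whole (5.35 to 9.21% of values in bulk libraries). The submitters' processing notes name the mm10 build and list Partek, TopHat2, HOMER, MACS2, Bowtie2 and Trim Galore, without versions. How reads were counted, and with what strand setting, is not given in the sources used here. Another 4 chromatin accessibility samples were not analysed here. The column of the CD106+ dex table has a code that no label holds and was assigned because no other sample's description names that table.

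Members and related lists were chosen with earlier results of these data known. Expected counts were rounded, filtered with filterByExpr, scaled by TMM and compared over all genes with edgeR's quasi-likelihood test (R 4.3.3, edgeR 4.0.16, limma 3.58.1), with Benjamini-Hochberg adjustment at 0.05. Levels are CPM of the deposited column total. Members at 5 CPM or more in any bulk library are given by library, all called members are named, and up to 4 genes per related list and comparison that passed are named; the Hoxb5 to Hoxa5 ratio was chosen after its values were seen. Values of 1 member are not reported here, in text or plots, though it stays in the counts and sums. Comparisons without replicates use log2 ratios with a pseudocount of 1 CPM, 95% exact Poisson or Clopper-Pearson intervals and a limit of 3 counts for zeros. No clustering was done and no doublet caller was run on the 26 cells. Promoters are from RefSeq, and 22 members matched. Alternatives were other scalings and filters, DESeq2 1.42.0, limma-voom, a replicate block, covariates, each library left out and, added after seeing the data, thinning to 200000 counts. On simulated counts, edgeR recovered 20% of log2 changes of 1 and 55% of changes of 2 at the mesenchyme design (10904 genes), and 10% and 65% at the CD106 design (12099 genes). The intervals cover counting error only. Replicates differed beyond sampling noise (chi-square per degree of freedom 9.94 to 40.4). Plots were made with matplotlib 3.10.9.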

Additional observations from a re-analysis of the deposited data

Results flagged for a closer look

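Among 13 Hox genes taken for a screen for a pool far from the other dex mesenchyme pools, 2 were picked out. Hoxa11 had no count in any dex pool and could not be flagged. Chance would trip the screen for about 1 group in 20 if values were normally distributed, which does not hold for counts near 0. Hoxa7 stood at 6.03 CPM in dex pool 4 against 0, 0 and 0.901 CPM in the other dex pools, a gap of 0.851 of the whole range. Hoxb9 stood at 0.340 CPM (1 count) in dex pool 2 and at 0 in the other 3 dex pools. A count in a single pool makes the gap 1.0 of the range by construction, so this flag carries no information.

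Hoxa11 had no count in any dex mesenchyme pool and 26 counts over the saline pools, at least 25.4-fold lower against a limit of 3 counts over the dex pools, while the CD106+ dex library had 1 count and the untreated CD106+ libraries none (log2 ratio 0.338). The directions are opposite, the second rests on 1 count, and the difference between them was not tested. Nearly all of the saline counts came from saline pool 1.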

How the results depend on the processing

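Between CD106+ and CD106- cells, the 12 tested members kept a positive log2 fold change in every alternative in which they were tested. Without CD106+ library 2, only 11 Hox members passed the filter. Their number of calls was 9 to 10 under other scalings, filters and tests, and 6 to 9 with 1 library left out, where the genes called overall ranged from 546 (without CD106- library 1) to 2756 (without CD106+ library 1) against 1239. In mesenchyme the Hox calls were 0, except for Hoxa11, which was called lower with no filter (1 call; log2 fold change -7.35, adjusted p = 0.0020) and without saline pool 2 (-8.34, adjusted p = 0.038), for a range of 0 to 1 with 1 library left out. Genes called overall in mesenchyme were 306, against 598 with no filter, 512 with DESeq2, 186 with Xist and 40 with chondrocyte markers as a covariate, and 179 (without dex pool 1) to 335 (without dex pool 3) with 1 library left out. The replicate block gave 154 calls in mesenchyme, with 0 Hox genes, and 1276 between the CD106 fractions, with 10 Hox genes. Deviations of same-numbered libraries from their group means had correlations of -0.05 to 0.05. With so few libraries per group, this cannot show whether same-numbered fractions or pools belong together.

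Directions that turned in mesenchyme, none of them called, were Hoxa2 (0.067 with Xist; -1.11 to 0.14 with 1 library left out), Hoxa3 (0.033 with chondrocyte markers), Hoxa4 (0.36 with Xist), Hoxa5 (0.13 with the replicate block, 0.28 with Xist; -0.265 to 0.16 with 1 library left out) and Hoxb7 (0.37 with limma-voom, 0.031 with chondrocyte markers; -0.86 to 1.25 with 1 library left out). The cause was not tested. In the CD106+ dex library, 2 members passed a log2 ratio of 1 in size when CD106+ library 1 was left out (Hoxb4 at -1.04 and Hoxb5 at -1.22) and 1 when CD106+ library 2 was (Hoxb2 at -1.14), against 0. In cells, leaving out those with Pecam1 above 100 CPM gave a log2 ratio of 0 for Hoxa2, whose counts lie in those cells. It gave 3.26 for Hoxa7, against -1.29 with all cells. Hoxa7 had counts in only 1 dex and 1 saline cell, and the saline cell was among those left out. At a limit of 5 CPM in every library, members numbered 6 in dex pools, 7 in the CD106+ dex library, 6 in CD106+ libraries and 2 in CD106- libraries. Levels per kilobase were not run, because no exon lengths were at hand. Low counts left 30 members in mesenchyme and 27 between the CD106 fractions without a test in the main comparisons. Leaving out a saline pool, or any CD106 library, leaves a lone library that is assumed to vary like the other group.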
